A study of Mus musculus with 16 samples.

Results

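The genes described here are 44 interferon-response genes, a list of transcripts known to rise when cells receive interferon. They were chosen by symbol, each through the probe set that the array's annotation ties to that gene alone, and where a gene had several such probe sets the one with the highest mean over the 16 arrays was kept. This gave 42 of the 44 genes, out of 19938 genes on the array. Gbp2 and Igtp were not described, because their probe sets also name another gene. Irf1 alone had more than 1 probe set.

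Type I interferons signal through their receptor and the kinases JAK1 and TYK2 to a complex that holds STAT2 and IRF9 and binds a DNA element called the ISRE in its target genes. Interferon gamma signals through a separate receptor and acts on an element called GAS. The targets include sensors of viral RNA, enzymes and binding proteins that block viral replication, and inhibitors that end the response, and in dendritic cells the response is known to accompany antigen presentation.

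The RNA came from mouse lung myeloid cells sorted for CD11c, MHC class II and CD11b, which the labels call CD11b+ DCs, where DC stands for dendritic cell. The hosts of both groups were immunocompetent C57BL/6 mice that carried lung tumours grown from Lewis lung carcinoma (LLC) cells, a transplantable mouse tumour line of the same strain, placed in the airways. The 8 arrays of 1 group are labelled tumoral, from cells sorted out of the tumour, and the 8 of the other are labelled peritumoral, from the lung tissue next to it, and the comparison asks how the cells of both sites differ. No label gives an age, a time after inoculation, or the animal or pool behind an array, and the p-values below therefore reflect only how these arrays vary, which may be partly technical. Values are log2 expression as deposited, differences are tumoral minus peritumoral, and the level of a gene is not compared with that of another gene because probe sets differ in brightness.

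The arrays resembled each other in a pattern that crossed the labels. Over all genes the correlation between 2 arrays lay between 0.934 and 0.997, and no pair was identical. In the deposited order, which runs from peritumoral 1 to 8 and then from tumoral 1 to 8, each of the 16 arrays correlated best with an array that lay 3 positions or a multiple of 3 away, and for 5 arrays this closest array carried the other label. The sorting markers were high in every array, with Itgax (CD11c) between 11.07 and 11.79 and H2-Ab1 (MHC class II) between 13.06 and 13.38. Itgam (CD11b) varied more, from 10.18 in peritumoral 4 to 11.80 in peritumoral 3. It was highest in peritumoral 3 and 6 and tumoral 1, 4 and 7. Irf4, a transcription factor of CD11b+ dendritic cells, measured 9.002, 8.77, 9.17, 9.005 and 9.39 in peritumoral 3 and 6 and tumoral 1, 4 and 7, and at least 9.88 in the other 11 arrays. Cdh5, an endothelial gene, measured 12.09 in peritumoral 4 and 10.29 in peritumoral 7 and 8.56 or less in all other arrays. What lies behind these differences between arrays was not tested. Because the pattern crosses the labels, it is in doubt whether the titles describe the arrays they stand on, and every difference and spread by label below holds only as far as they do.

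The upstream sequences show the elements named above. RefSeq promoters, 250 bases before to 50 bases after a start site on GRCm38.p6, were matched to 32 of the 42 genes, with 39 start sites in all. The letters GAAA, any 2 bases and GAAA again, on either strand (TTTC, any 2 bases and TTTC when read from the other), served as ISRE, and TTCNNNGAA, which reads alike on both strands, as GAS. Both may share bases, as they do in the Bst2 promoter. An ISRE match lay in 16 of the 39 promoters (41.0%), against 3.44% of all 32851 RefSeq promoters, and a GAS match in 7 (17.9%), against 8.30%. Of the 32 genes 15 had an ISRE match, 7 a GAS match, 3 of these both, and 13 neither in these windows. The 6 promoters below, with ISRE and GAS matches in capitals, belong to genes whose values are given in full or that had the widest differences, and all hold a match. Irf7, Parp12 and Lgals3bp, also given in full, had neither match in these windows and are not shown. Ifit1 and Ifit3 each carry a pair of separate ISRE matches, starting at bases -104 and -85 and at -156 and -122 from the start site. Rsad2 has 1 at -120. In Irgm1 and Oas1a a pair overlaps, from -30 and -24 and from -20 and -14, and Oas1a has a GAS match at -98 as well. Irf1 has a GAS match at -90 and no ISRE match in this window. A match is a string of letters and shows neither binding nor use in these cells.
Ifit1, chr19:34640639-34640938, plus strand: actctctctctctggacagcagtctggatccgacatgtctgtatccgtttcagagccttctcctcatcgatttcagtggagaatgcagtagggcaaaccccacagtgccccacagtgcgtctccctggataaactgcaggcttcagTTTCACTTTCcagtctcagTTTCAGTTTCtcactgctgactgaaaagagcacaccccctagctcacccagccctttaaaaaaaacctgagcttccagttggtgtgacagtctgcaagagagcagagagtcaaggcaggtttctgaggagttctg
Ifit3, chr19:34583279-34583578, plus strand: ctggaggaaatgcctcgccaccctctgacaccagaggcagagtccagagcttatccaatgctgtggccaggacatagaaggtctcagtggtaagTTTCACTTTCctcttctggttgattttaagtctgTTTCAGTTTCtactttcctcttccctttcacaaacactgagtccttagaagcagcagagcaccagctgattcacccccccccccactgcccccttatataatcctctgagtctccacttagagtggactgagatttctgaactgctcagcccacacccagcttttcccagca
Rsad2, chr12:26456403-26456702, minus strand: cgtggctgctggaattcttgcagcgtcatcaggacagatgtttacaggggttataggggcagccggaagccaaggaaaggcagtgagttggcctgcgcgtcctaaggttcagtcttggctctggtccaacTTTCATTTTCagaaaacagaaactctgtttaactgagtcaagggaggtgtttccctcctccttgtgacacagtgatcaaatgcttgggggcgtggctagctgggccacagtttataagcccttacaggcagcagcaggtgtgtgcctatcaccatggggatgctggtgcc
Irgm1, chr11:48871371-48871670, minus strand: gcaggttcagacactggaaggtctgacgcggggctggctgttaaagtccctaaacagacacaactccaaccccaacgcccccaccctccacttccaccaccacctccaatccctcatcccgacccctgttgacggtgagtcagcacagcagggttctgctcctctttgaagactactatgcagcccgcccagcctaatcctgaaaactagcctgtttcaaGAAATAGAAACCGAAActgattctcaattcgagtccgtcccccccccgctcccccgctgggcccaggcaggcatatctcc
Oas1a, chr5:120907476-120907775, minus strand: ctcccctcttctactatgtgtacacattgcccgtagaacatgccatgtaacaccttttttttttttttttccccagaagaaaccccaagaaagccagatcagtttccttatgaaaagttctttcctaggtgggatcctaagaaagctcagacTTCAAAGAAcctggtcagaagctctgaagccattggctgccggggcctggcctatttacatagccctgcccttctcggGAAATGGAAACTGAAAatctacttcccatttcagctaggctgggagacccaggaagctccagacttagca
Irf1, chr11:53769764-53770063, plus strand: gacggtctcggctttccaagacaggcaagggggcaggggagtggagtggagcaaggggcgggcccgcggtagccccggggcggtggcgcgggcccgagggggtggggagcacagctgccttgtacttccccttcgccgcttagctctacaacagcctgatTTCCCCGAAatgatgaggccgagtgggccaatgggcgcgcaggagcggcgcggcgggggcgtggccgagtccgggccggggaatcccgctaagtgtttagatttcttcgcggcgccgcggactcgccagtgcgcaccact

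Of the 42 interferon-response genes 38 had the higher mean under the tumoral label, but 0 passed the test between the labels. Their median difference was 0.27, against -0.02 over all genes. No member's label means were 2-fold apart. The largest difference, 0.68 ± 0.38 (SE), was that of Ifit3. Single arrays lay farther apart than the label means: 3 tumoral arrays stood highest for most of the genes, while tumoral 2, 5 and 8 stood among the lower arrays.

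Ordered as deposited, the mean of the 42 genes, each taken relative to its own mean over the 16 arrays, measured -0.31, -0.06, -0.21, -0.15, -0.003, -0.25, -0.28 and 0.28 in peritumoral 1 to 8. In tumoral 1 to 8 it measured 0.67, -0.52, 0.23, 0.51, -0.22, -0.001, 0.59 and -0.27. Tumoral 1, 4 and 7 were thus the highest of all arrays and tumoral 2 the lowest, and peritumoral 8 lay above the other 7 peritumoral arrays. In tumoral 1, 42 of the 42 genes lay above their own mean, in peritumoral 8 also 42, in tumoral 7 41, in tumoral 4 40 and in tumoral 3 38. In tumoral 2 just 1 gene did, in peritumoral 7 4, in tumoral 8 5 and in peritumoral 1 6. Over all genes this share ran from 39.9% to 61.0% per array.

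**Figure D1:**
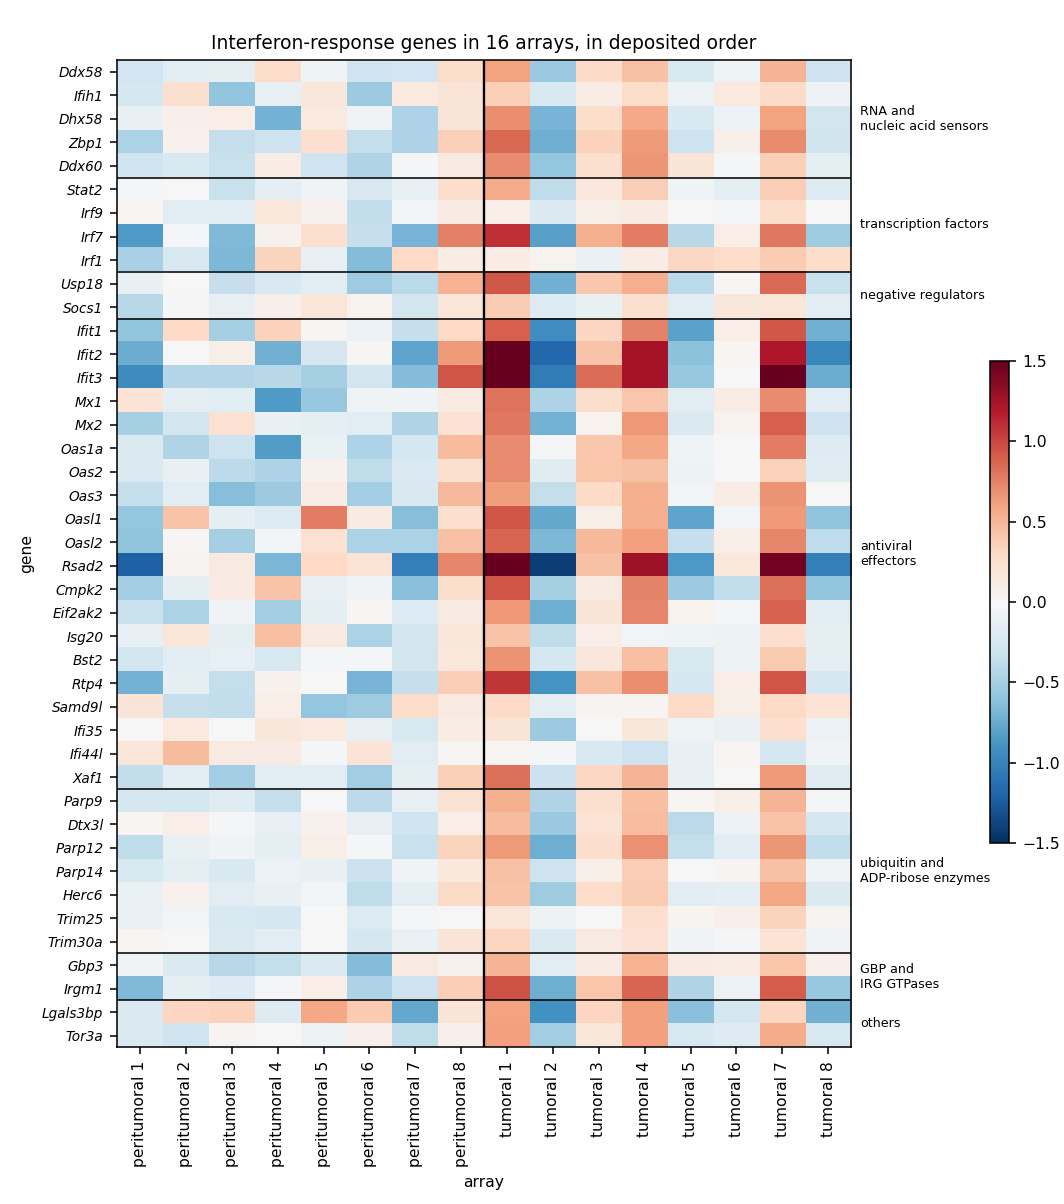
Log2 value of each of 42 interferon-response genes (rows, grouped by role) minus its mean over 16 arrays, for each array (columns, in deposited order; the vertical line parts the labels). Tumoral 1, 4 and 7 are high in nearly every row, tumoral 2 is low, and Irf1, Samd9l and Ifi44l run differently; colours end at 1.5 log2 units either way.

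Between the labels, limma with Benjamini-Hochberg adjustment called 0 of the 42 genes and 0 of all 19938 genes (0%). Adjusted p-values of the members ran from 0.246 to 0.999. At an unadjusted p under 0.05 there were 12 members higher in tumoral arrays (28.6%), against 5.6% of all genes, and 1 lower (2.38%), against 5.9% of all genes. The rank-sum test also called 0 members, with 9 at an unadjusted p under 0.05, beside 2283 of all 19938 genes. These counts take both directions together. The labels overlapped in 42 of the 42 members, and they did not overlap in 17 genes of the whole table (0.0853%). The count of members higher in tumoral arrays is to be read beside the 41.7% of all genes that were higher. With each array centred on its median 39 members and 58.3% of all genes were higher. With the standard deviation of each array as a covariate, added after the data were seen, the median difference was 0.11 and 31 members were higher. In that fit 46.9% of all genes were higher. There 8 of the 42 members had an unadjusted limma p under 0.05, beside 3427 of all 19938 genes. The share of members thus lay close to that of all genes. Without tumoral 2 the count of members at an unadjusted p under 0.05 was 22 in place of 13. Over all genes this count rose as well, to 3302 in place of 2292.

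**Figure D2:**
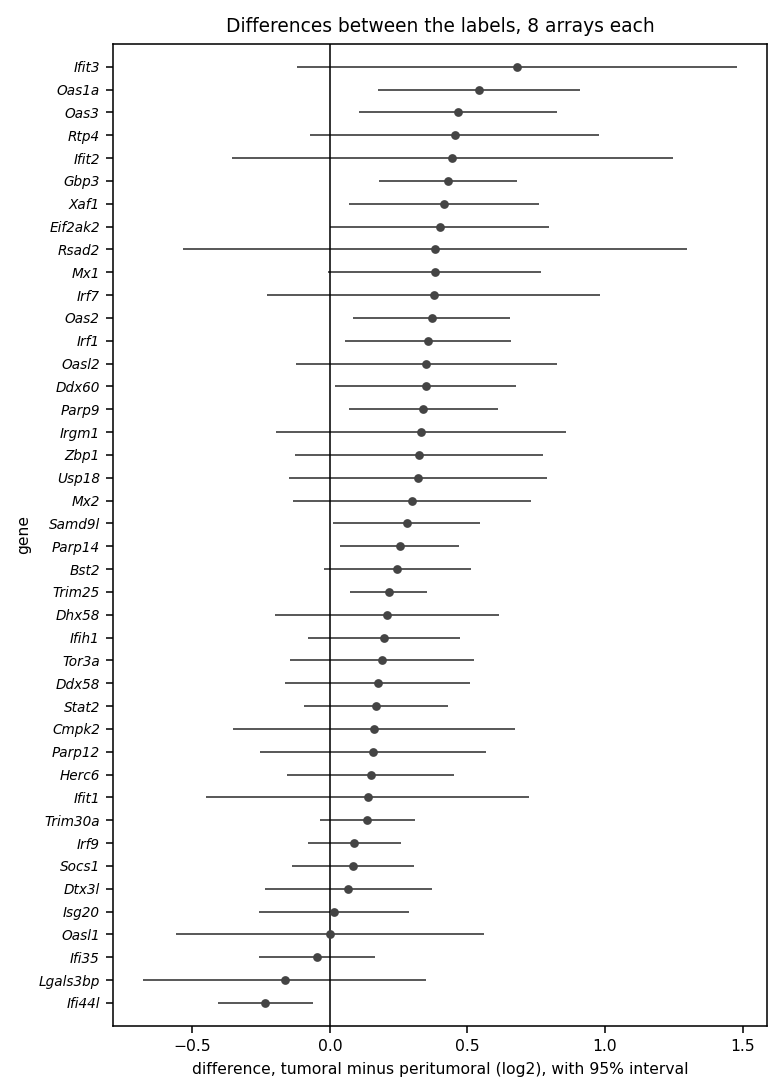
Difference between the label means, tumoral minus peritumoral on the log2 scale, with its 95% interval from limma, for each of 42 interferon-response genes (8 arrays per label). Intervals are widest for Rsad2, Ifit2 and Ifit3, and Gbp3, Trim25 and Oas1a are among those whose unadjusted interval lies above 0, though 0 of the genes passed after adjustment.

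Among sensors of foreign nucleic acid, all 5 members were higher on average in tumoral arrays, by 0.17 to 0.35, and 0 passed the test. Zbp1, which binds nucleic acid in the Z form, measured 9.93, 8.33, 9.41, 9.70, 8.75, 9.13, 9.77 and 8.76 in tumoral 1 to 8. In peritumoral 1 to 8 it measured 8.58, 9.12, 8.71, 8.75, 9.32, 8.70, 8.59 and 9.42. Tumoral 1, 4 and 7 lay above the highest peritumoral array, whereas tumoral 2 lay below the lowest. The difference was 0.32 ± 0.21 (SE; limma adjusted p = 0.573).

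Ddx58, which encodes the RNA sensor RIG-I, differed by 0.17 ± 0.16 (SE) and ranged from 8.77 to 9.93 in tumoral and from 9.03 to 9.60 in peritumoral arrays. Dhx58, which encodes LGP2, a relative that tunes RIG-I and MDA5, differed by 0.21 ± 0.19, with a tumoral range of 7.95 to 9.35. In both, 4 tumoral arrays lay above every peritumoral array and tumoral 2 was the lowest tumoral array, though for Dhx58 peritumoral 4 (7.94) was as low as tumoral 2. Ddx60, a helicase that aids RIG-I signalling, differed by 0.35 ± 0.16, and 5 tumoral arrays exceeded the highest peritumoral value of 7.40. Ifih1, which encodes MDA5, was the exception in its spread. It ranged from 9.09 to 9.91 in peritumoral arrays and only from 9.44 to 10.03 in tumoral arrays, with peritumoral 3 and 6 lowest, and differed by 0.20 ± 0.13.

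Of the 4 transcription factors, all were higher on average in tumoral arrays and 0 passed. Irf7, which amplifies the induction of type I interferon genes, measured 10.09, 8.17, 9.52, 9.76, 8.58, 9.09, 9.78 and 8.46 in tumoral 1 to 8. Its peritumoral values were 8.14, 8.98, 8.33, 9.05, 9.23, 8.64, 8.30 and 9.75. The tumoral values thus spanned nearly the whole range seen in the peritumoral arrays and reached above it in 3 arrays, and the difference was 0.38 ± 0.29 (SE; limma adjusted p = 0.629, 95% interval -0.23 to 0.98). Stat2 and Irf9, partners in the complex that binds the ISRE, varied less, with ranges over all arrays of 0.94 and 0.64, and differed by 0.17 ± 0.12 and 0.09 ± 0.08.

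Irf1, a transcription factor induced early by interferon gamma, did not share the order of the other genes. It measured 10.34, 10.28, 10.13, 10.34, 10.54, 10.51, 10.61 and 10.50 in tumoral 1 to 8 and 9.74, 9.99, 9.56, 10.56, 10.10, 9.58, 10.53 and 10.34 in peritumoral 1 to 8. All 8 tumoral arrays lay above the peritumoral median of 10.05, tumoral 2 included, and peritumoral 3 and 6 were lowest. Its difference was 0.36 ± 0.14 (SE; limma adjusted p = 0.363), and its tumoral SD of 0.16 was below its peritumoral SD of 0.41. The second, dimmer probe set of Irf1 differed by 0.18.

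Negative regulators differed between the pair measured. Usp18, a protease that removes ISG15 from proteins and blocks the type I receptor, measured 10.28, 8.63, 9.74, 9.89, 8.94, 9.36, 10.19 and 9.01 in tumoral 1 to 8. It measured 9.23, 9.34, 9.0003, 9.11, 9.17, 8.81, 8.95 and 9.87 in peritumoral 1 to 8. Its values spread 1.89 times as widely in tumoral arrays by SD, and its label means differed by 0.32 ± 0.22 (SE; limma adjusted p = 0.595). Socs1, an inhibitor of JAK kinases, ranged only from 8.03 to 8.601 in tumoral and from 7.804 to 8.40 in peritumoral arrays, with a difference of 0.09 ± 0.11.

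The 20 antiviral effectors are the largest group. Of these, 17 were higher on average in tumoral arrays and 3 lower, with a median difference of 0.36, and 0 passed. The sign of Isg20 turned with quantile normalization and that of Oasl1 with centred medians. With the array standard deviation as a covariate Rsad2 (-0.064), Ifit1 (-0.068), Cmpk2 (-0.040) and Isg20 (-0.011) turned as well, and Ifi35 did without tumoral 2 (0.027). Rsad2, which encodes viperin, an enzyme that makes a chain-ending nucleotide, had the widest range of any member, 2.91. It measured 10.43, 7.52, 9.37, 10.21, 8.07, 9.09, 10.38 and 7.91 in tumoral 1 to 8 and 7.71, 8.98, 9.07, 8.24, 9.24, 9.14, 7.91 and 9.67 in peritumoral 1 to 8. The highest and the lowest arrays both carried the tumoral label, and the difference of 0.38 ± 0.43 (SE) had a 95% interval from -0.54 to 1.30 (limma adjusted p = 0.764). Cmpk2, its chromosomal neighbour and a nucleotide kinase, differed by 0.16 ± 0.24 and ran from 7.003 to 8.55 in tumoral arrays.

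IFIT proteins bind viral RNA that lacks the cap of host messages. Ifit1 measured 9.22, 7.40, 8.64, 9.07, 7.53, 8.42, 9.26 and 7.601 in tumoral 1 to 8 and 7.73, 8.63, 7.83, 8.67, 8.36, 8.23, 7.97 and 8.62 in peritumoral 1 to 8. Tumoral 2, 5 and 8 lay below every peritumoral array and tumoral 1, 4 and 7 above every one, so that the label means differed by just 0.14 ± 0.28 (SE; limma adjusted p = 0.889). Ifit3 had a tumoral low, median and high of 7.797, 9.26 and 10.36 and peritumoral values of 7.91, 8.41 and 9.79. Its peritumoral high was peritumoral 8, the next being 8.57. Ifit2 ran from 6.63 through a median of 8.04 to 9.44 in tumoral arrays and from 7.01 through 7.68 to 8.45 in peritumoral arrays, a difference of 0.45 ± 0.38.

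**Figure D3:**
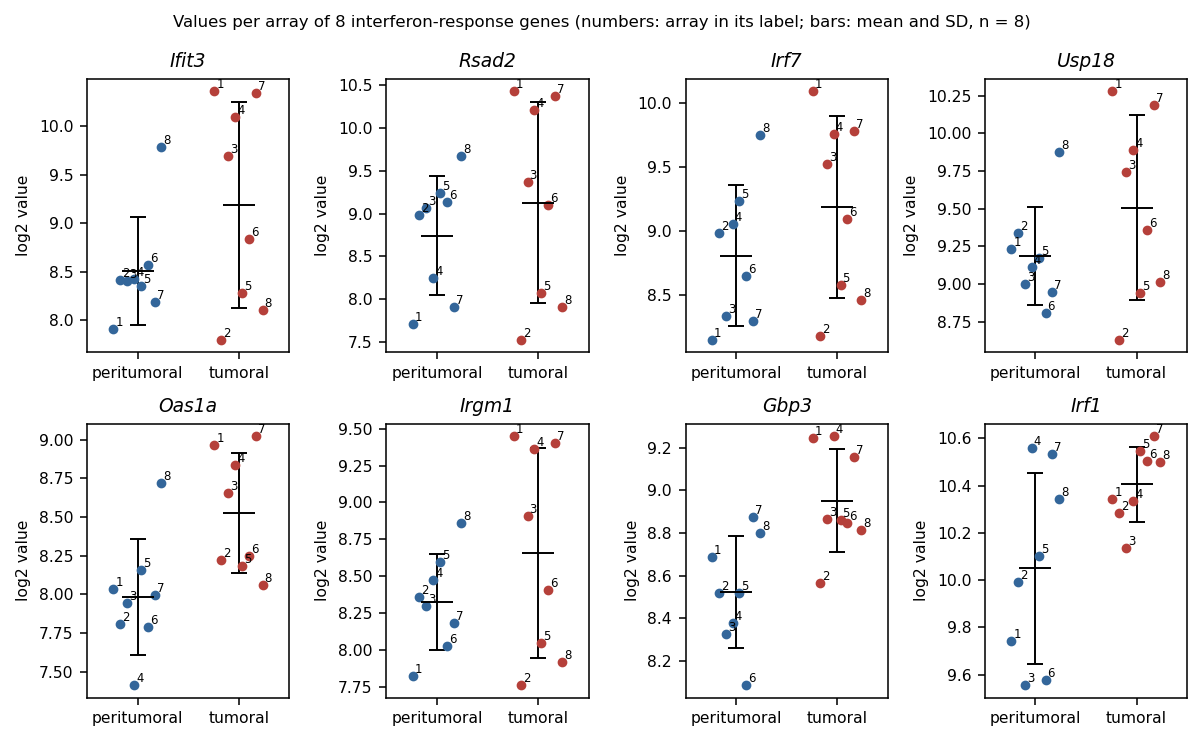
Log2 values of 8 interferon-response genes in each array (points, numbered within their label; blue peritumoral, red tumoral) with the label mean and SD (black, n = 8). In Ifit3, Rsad2, Irf7, Usp18 and Irgm1 tumoral 1, 4 and 7 lie at the top and tumoral 2, 5 and 8 low, whereas the tumoral values of Irf1 lie close together between 10.13 and 10.61.

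OAS enzymes make the 2-5A messenger that activates RNase L. Oas1a measured 8.97, 8.22, 8.66, 8.83, 8.18, 8.25, 9.02 and 8.06 in tumoral 1 to 8 and 8.04, 7.81, 7.95, 7.41, 8.16, 7.79, 7.995 and 8.72 in peritumoral 1 to 8. Here all 8 tumoral arrays lay above the peritumoral median of 7.97, and the difference was 0.54 ± 0.17 (SE; limma adjusted p = 0.283). Oas2 also had all 8 tumoral arrays above its peritumoral median, with a difference of 0.37 ± 0.14, and Oas3 had 7, with 0.47 ± 0.17. The OAS-like genes went apart. Oasl2 differed by 0.35 ± 0.23, and Oasl1, whose product restrains the translation of Irf7, by -0.001 ± 0.27, with a 95% interval of -0.56 to 0.56 and its peritumoral high in peritumoral 5 (9.52).

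The Mx GTPases trap viral particles, and C57BL/6 mice carry a defective Mx1. Mx1 ranged from 7.22 to 8.496 in tumoral and from 6.84 to 7.89 in peritumoral arrays, a difference of 0.38 ± 0.18, and Mx2 differed by 0.30 ± 0.21. Eif2ak2, which encodes the RNA-activated kinase PKR, ran from 7.19 to 8.80 in tumoral and from 7.40 to 8.05 in peritumoral arrays, a ratio of SDs of 2.31, and differed by 0.40 ± 0.19. Rtp4, Xaf1 and Bst2 followed with 0.45 ± 0.25, 0.42 ± 0.16 and 0.25 ± 0.13. Bst2 encodes tetherin, which holds budding virus on the cell, and Xaf1 a promoter of apoptosis. In each of these genes tumoral 2 was the lowest tumoral array.

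4 further effectors stood apart from the group, in their order over the arrays or in their difference. Samd9l, a restriction factor of poxviruses, was lowest in peritumoral 5 (7.86) and ran only from 8.30 to 8.75 in tumoral arrays, with a difference of 0.28 ± 0.13. Isg20, an RNA exonuclease, differed by 0.01 ± 0.13, and its highest array was peritumoral 4 (9.50). Ifi35 differed by -0.05 ± 0.10, though tumoral 1, 4 and 7 were its highest tumoral arrays and tumoral 2 its lowest. Ifi44l was lower in tumoral arrays by 0.23 (-0.23 ± 0.08, limma adjusted p = 0.315), and all 8 tumoral arrays lay below its peritumoral median of 5.64. Its values ran from 5.20 to 5.55 in tumoral and from 5.35 to 5.99 in peritumoral arrays. Values this low were not checked against a detection call, so they may lie near background.

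Of the 7 ubiquitin and ADP-ribose enzymes, all were higher on average in tumoral arrays, and 0 passed. Parp12, an ADP-ribosyl transferase that acts against viruses, measured 10.58, 9.21, 10.21, 10.63, 9.59, 9.77, 10.60 and 9.57 in tumoral 1 to 8. It measured 9.56, 9.83, 9.89, 9.80, 10.03, 9.91, 9.61 and 10.28 in peritumoral 1 to 8. Tumoral 2 was the lowest of all arrays and tumoral 1, 4 and 7 the highest, and the difference was 0.16 ± 0.19 (SE; limma adjusted p = 0.788). Parp9 and Dtx3l encode partners in 1 complex, and they differed by 0.34 ± 0.13 and 0.07 ± 0.14. Dtx3l had the largest ratio of SDs of any member, 2.996, with 0.41 in tumoral and 0.14 in peritumoral arrays. Parp14 and the ISG15 ligase gene Herc6 differed by 0.25 ± 0.10 and 0.15 ± 0.14. Trim25, the ubiquitin ligase that activates RIG-I, varied little. It ran from 10.58 to 10.99 in tumoral and from 10.39 to 10.66 in peritumoral arrays, 6 tumoral arrays lay above the highest peritumoral array, and the difference was 0.21 ± 0.07 (SE; limma adjusted p = 0.269). Trim30a differed by 0.14 ± 0.08.

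The GBP and IRG GTPases attack the vacuoles of intracellular microbes and respond strongly to interferon gamma. Gbp3 had the smallest p of all members. Its tumoral low, median and high were 8.57, 8.86 and 9.25 and its peritumoral values 8.09, 8.52 and 8.88, so that all 8 tumoral arrays lay above the peritumoral median. The difference was 0.43 ± 0.12 (SE; limma adjusted p = 0.246, 95% interval 0.18 to 0.68 before adjustment). Irgm1, a regulator of this family, measured 9.45, 7.76, 8.90, 9.37, 8.05, 8.41, 9.40 and 7.92 in tumoral 1 to 8. In peritumoral 1 to 8 it measured 7.82, 8.36, 8.30, 8.47, 8.59, 8.02, 8.18 and 8.86. Its tumoral arrays fell both above and below the peritumoral ones, and its difference was 0.33 ± 0.25.

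Lgals3bp, which encodes a secreted glycoprotein, measured 11.93, 10.41, 11.64, 11.94, 10.70, 11.06, 11.64 and 10.60 in tumoral 1 to 8 and 11.10, 11.65, 11.67, 11.13, 11.90, 11.71, 10.55 and 11.52 in peritumoral 1 to 8. Low values thus occurred under both labels, in tumoral 2, 5 and 8 and peritumoral 7, and the difference was -0.16 ± 0.24 (SE). Tor3a, a torsin ATPase, differed by 0.19 ± 0.16, with a tumoral SD of 0.46 against 0.18.

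How alike the members were over the arrays was described in 3 ways. The first principal component of the 42 genes, taken around their label means, held 82.6% of their variance, against 49.5% for all genes. The likeness of each gene to the mean of the other 41, as a Pearson correlation over the 16 arrays, was above 0.8 for 30 members, highest for Zbp1 (0.979) and Irgm1 (0.976), and lowest for Samd9l (0.28), Irf1 (0.27) and Ifi44l (-0.42). These are descriptions over arrays that share the resemblance noted above. In 36 of the 42 members tumoral 1, 4 and 7 were the highest 3 of the tumoral arrays, as they were in 22.1% of all genes, and in 32 they were the highest of all 16, as in 6.39% of all genes. In 37 members tumoral 2 was the lowest tumoral array, as in 31.6% of all genes. This order was noticed after the values were seen, and no test was made of it.

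The spread within the tumoral label was wider for most members. The SD was larger over tumoral than over peritumoral arrays in 34 of 42 members, against 48.9% of all genes, and the median ratio of SDs was 1.66, against 0.99 over all genes. Ifih1, Irf9, Irf1, Oas3, Isg20, Samd9l, Ifi44l and Gbp3 were the 8 members with the smaller SD in tumoral arrays. limma on absolute deviations from the label median called 0 members and 0 of all 19938 genes (0%), with 15 members and 840 genes at an unadjusted p under 0.05. Of the 15, 13 had the larger spread in tumoral arrays, against 1.71% of all genes, and Irf1 and Samd9l the smaller. By this measure 35 members had the larger spread in tumoral arrays, against 50.6% of all genes, and after quantile normalization 31, against 36.9%. In simulated data this test recovered 0% of genes with a 2-fold and 3.5% of genes with an 8-fold change in SD, so that its lack of calls carries little weight.

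**Figure D4:**
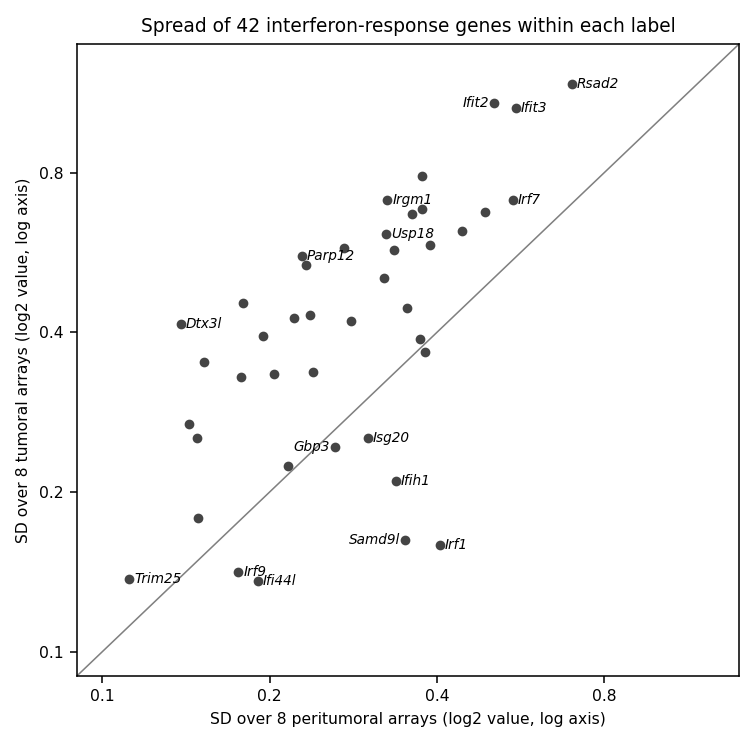
Standard deviation of the log2 value over 8 tumoral arrays (vertical) against that over 8 peritumoral arrays (horizontal), both on log axes, 1 point per interferon-response gene; the line marks equal SDs. Of 42 genes 34 lie above the line, with Dtx3l farthest from it at a ratio of 2.996, and Irf1, Samd9l and Ifih1 lie below.

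Markers of cell type followed the same arrays in part. The mean of the 11 dendritic cell markers was lowest in peritumoral 3, 4 and 6 and tumoral 1, 4 and 7. Relative to each gene's mean it measured -0.28, -0.32, -0.42, -0.29, -0.31 and -0.14 in these arrays. Among the 11, however, Itgam (CD11b) and Sirpa were highest in peritumoral 3 and 6 and tumoral 1, 4 and 7. Itgam measured 11.80, 11.68, 11.53, 11.62 and 11.62 there, and Sirpa 12.14, 12.22, 12.13, 12.17 and 12.03. The mean of the 9 macrophage markers was highest in tumoral 4 (0.61), tumoral 1 (0.44), peritumoral 6 (0.32), tumoral 7 (0.30) and peritumoral 3 (0.22). Peritumoral 3 and 6 nevertheless had low interferon-response values, -0.21 and -0.25, with 8 members above their mean in each. Not every macrophage marker followed the mean of the 9. Among the tumoral arrays Adgre1 was highest in tumoral 4 (11.69) but lowest in tumoral 7 (11.32). Fcgr1 also stands in the list of interferon gamma targets described below, so the macrophage mean is not separate from that list. Over the labels, 9 of 11 dendritic cell markers and 8 of 9 macrophage markers were higher in tumoral arrays, with 0 called by limma. Markers of several other cells had larger differences the other way, also with 0 called. For endothelium, lung epithelium, neutrophils and fibroblasts, 0 of 9, 0 of 10, 0 of 10 and 0 of 8 were higher in tumoral arrays. Their median differences were -0.80, -0.55, -0.50 and -0.41. Monocyte and type 1 dendritic cell markers were mixed, with 4 of 7 measured higher in each, medians of 0.19 and 0.06 and 0 called. The summed level of the endothelial markers ran from 61.0 to 61.8 in tumoral and from 60.8 to 98.2 in peritumoral arrays, highest in peritumoral 4. The summed level of the macrophage markers ran from 99.6 to 106.8 in tumoral and from 94.2 to 104.2 in peritumoral arrays, and that of the dendritic cell markers from 120.3 to 126.7 and from 119.1 to 126.9. The part of these markers in the result was not tested, and in sorted cells measured in bulk a shift in the mix of cells cannot be told apart from a change per cell.

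**Figure D5:**
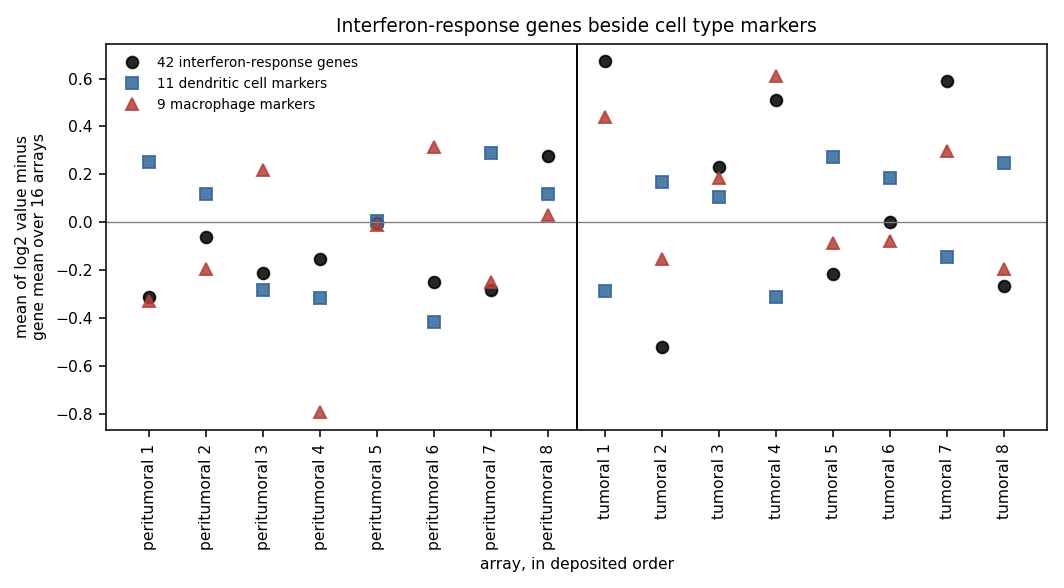
Mean over 42 interferon-response genes (black), 11 dendritic cell markers (blue) and 9 macrophage markers (red) of the log2 value minus each gene's mean over 16 arrays, for each array in deposited order; the vertical line parts the labels. By these means tumoral 1, 4 and 7 combine high interferon-response and macrophage values with low dendritic cell values. Peritumoral 3 and 6 share the marker means with low interferon-response values. The dendritic cell markers Itgam and Sirpa, taken singly, are highest in these arrays.

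Plasmacytoid dendritic cells are potent makers of type I interferon. Of their 8 markers 7 were measured and 0 were higher in tumoral arrays. Their summed level ran from 50.05 to 53.4 in tumoral and from 50.3 to 57.0 in peritumoral arrays, highest in peritumoral 4, and their mean was -0.29, -0.34 and -0.21 in tumoral 1, 4 and 7. NK and T cells, sources of interferon gamma, had 0 of 7 and 0 of 7 measured markers higher in tumoral arrays, beside 41.7% of all genes. Their summed levels ran from 35.4 to 38.0 and from 45.4 to 49.1 in tumoral arrays, and from 36.2 to 50.9 and from 47.0 to 56.7 in peritumoral arrays. Both were highest in peritumoral 4. The part of plasmacytoid dendritic cells, NK cells and T cells in the result was not tested. The SD and the median of all values in an array varied as well. The SD of all values in an array was 2.11, 2.16 and 2.16 in tumoral 1, 4 and 7, 1.98 in tumoral 2 and 2.01 to 2.11 in peritumoral arrays, and the array median was 6.80, 6.75 and 6.77 against 6.93 in tumoral 2. The part of the SD and the median in the result was not tested beyond the covariate and the centring on medians given above.

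The ligand genes did not share this order, and some receptors and sensors did. Of 20 interferon and related cytokine genes 17 were measured, 6 higher and 11 lower on average in tumoral arrays, with a median difference of -0.02, 0 called, and in 0 of them were tumoral 1, 4 and 7 the highest tumoral arrays. Ifnb1, the type I gene commonly induced first, measured 5.92 ± 0.22 in tumoral and 6.22 ± 0.31 in peritumoral arrays (SD, n = 8), a difference of -0.30 ± 0.13 (SE). Ifnk differed by 0.38 ± 0.12 and Ifna11 by -0.17 ± 0.07. Probe set values this low were not checked against a detection call.

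Among receptors, kinases and their inhibitors 13 of 15 were measured, 10 of them higher and 3 lower, with 0 called and a median of 0.08, and in 5 of the 13 tumoral 1, 4 and 7 were the highest tumoral arrays (22.1% of all genes). Ifnar2, a chain of the type I receptor, differed by 0.18 ± 0.08, and Ptpn2, a phosphatase that acts on JAK and STAT proteins, by 0.30 ± 0.13. Of 17 sensors and adaptors 14 were measured, 9 higher and 5 lower, with 0 called and a median of 0.12, and 7 of the 14 had tumoral 1, 4 and 7 highest among the tumoral arrays. Tbk1, the kinase that activates IRF3, differed by 0.28 ± 0.09 and Tlr7, an endosomal RNA receptor, by 0.26 ± 0.11.

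Further targets of type I interferon, in a list apart from the 44, repeated the order in most members. Of 46 genes 37 were measured, 32 with the higher and 5 with the lower tumoral mean, a median difference of 0.18 and 0 called, and 10 were higher at an unadjusted p under 0.05, as were 5.6% of all genes. In 27 of the 37 tumoral 1, 4 and 7 were the highest tumoral arrays, as in 22.1% of all genes. Ifi27l2a, a mitochondrial protein gene, differed by 0.74 ± 0.16 and Sp140, which encodes a chromatin reader, by 0.61 ± 0.15 (SE; limma adjusted p = 0.232 and 0.239). Ms4a4c, which also marks monocytes, differed by 0.50 ± 0.14, and Slfn8, of the Schlafen family, by 0.42 ± 0.12.

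Of 29 interferon gamma targets 24 were measured, 16 higher and 8 lower, with a median of 0.10 and 0 called. Tumoral 1, 4 and 7 were the highest tumoral arrays in 19 of the 24, beside the same 22.1%. The proteasome genes Psme1 and Psmb8 differed by 0.21 ± 0.07 and 0.32 ± 0.12, and Gbp8 by 0.35 ± 0.17. Over all 16 arrays, the 10 genes outside the list most like the mean of the 42 were Ifi206, Rnf213, Ifi213, Tapbpl, Tap1, Gm12250, Phf11d, Nt5c3, Nmi and Slfn1. Their correlation with that mean ran from 0.925 for Slfn1 to 0.972 for Ifi206, as a measure of likeness with no test, and 6 of the 10 stood in these lists of pathway genes. Slfn1 measured 9.65, 9.17 and 9.09 in tumoral 1, 4 and 7 and 6.75 in tumoral 2.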

How the data were processed

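The authors deposited a table of 28853 probe sets by 16 arrays on a log scale, read here as log2 because values run from 2.31 to 14.33. Per the labels' protocols, RNA was amplified by an Ambion whole-transcript kit and labelled with biotin for Affymetrix arrays. How background was corrected and arrays were normalized, and the log base, is not stated in the labels, and another base would rescale every difference. Single symbols named 21789 probe sets, several 1621 and none 5443, and 1 probe set per gene left 19938 genes. Differences and Benjamini-Hochberg adjusted p-values over all genes, at a threshold of 0.05, came from limma (version 3.58.1, under R 4.3.3), with moderated variances, the label alone in the model, 14 residual degrees of freedom and no filter on dim genes. SE is limma's moderated standard error.

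The members, lists and rules were chosen with earlier results of these data known. Every member was named, with all arrays given for the member of widest range in each role and for Ifit1, Irf7, Oas1a and Irf1. Non-members were named by smallest p within their list, and 10 by likeness. On simulated data with 200 of 19938 genes changed, limma recovered 83.5% of 1.5-fold and 97.0% of 2-fold differences between labels. The changed genes were drawn at random, and each gene varied independently of the others. The members varied together and more widely, with median SDs of 0.42 in tumoral and 0.29 in peritumoral arrays, against 0.17 over all genes. These percentages therefore do not hold for the members. Alternatives were the replicate number as a block, quantile normalization, centred medians, brighter genes, the mean of all probe sets, array weights, trended robust variances, a rank-sum test, deviations from the label mean for the spread, and each array left out. The number of arrays limits the precision.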

Additional observations from a re-analysis of the deposited data

Results flagged for a closer look

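Within each label, 84 sets of 8 values were examined for an array far from the other 7, and chance alone gives about 1 in 20. Ifit3 in peritumoral 8 measured 9.79, with the next peritumoral array at 8.57. Xaf1 in the same array measured 8.58, with the next at 8.09. Ifi35 in tumoral 2 measured 8.18, below the next tumoral array at 8.62.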

How the results depend on the processing

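Under the 25 alternatives fitted with limma and the rank-sum test 0 of 42 members were called. Members higher in tumoral arrays numbered 31 to 40 and their median difference lay between 0.11 and 0.32, both lowest with the array standard deviation as a covariate. Over all genes, 0 to 128 passed when single arrays were left out, with 128 without peritumoral 7 and 20 without peritumoral 8, and 88 passed without peritumoral 4 and 7, chosen after seeing the data. Centring on array medians made 58.3% of all genes higher in place of 41.7% and quantile normalization 47.6%, moving the median of all genes to 0.02 and -0.01. Of the members 33 kept their direction throughout and 9 did not. Isg20 turned to -0.025 with quantile normalization and -0.011 with the covariate, and ran from -0.053 to 0.081 with single arrays left out. Oasl1 turned to 0.044 with centred medians and ran from -0.135 to 0.113 with single arrays left out, and Ifi35 from -0.087 to 0.027. With the covariate Cmpk2 turned to -0.040, Dhx58 to -0.0056, Dtx3l to -0.070, Ifit1 to -0.068, Parp12 to -0.054 and Rsad2 to -0.064. The cause was not tested. With the replicate number as a block 0 genes and 0 members were called, and the median stayed at 0.27. Of 8 numbers 3 had a correlation of deviations over 0.1 (-0.56 to 0.29). Because arrays also resembled each other by position, this cannot tell whether arrays of 1 number share an animal. Dim probe sets could not be told from background without detection calls.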
